A study of Homo sapiens with 12 samples.

Results

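The genes described here copy the genome: 44 genes of DNA replication and of the transition into S phase, chosen by symbol and all found as 1 row each in both deposited count tables, which list 24459 and 24745 genes. They fall into 13 licensing genes, 7 genes of helicase activation, 15 genes of polymerases, clamp and strand maturation, 4 genes of nucleotide supply and 5 regulators of the step from G1 into S. The measurements are RNA-seq counts from A549, an established line derived from a human lung adenocarcinoma that keeps features of alveolar epithelium. The groups are 4 libraries given 10 ng/mL TGF-β1 together with 40 mM sodium acetate (the acetate libraries below), 4 given 10 ng/mL TGF-β1, and 4 control libraries, with treatments lasting 2 days. All cells were the same line grown in the same medium with fetal bovine serum, the labels name no vehicle for control, and since acetate was given only with TGF-β1 and only as its sodium salt, effects of acetate and of the sodium load cannot be told apart.

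Replication starts in G1, when the origin recognition complex (ORC) with CDC6 and CDT1 loads the MCM2 to MCM7 ring onto origins, a step called licensing. At the start of S phase CDC45 and the GINS complex join the ring to form the active helicase, and polymerases held to the template by the sliding clamp PCNA copy each strand from nucleotides made by ribonucleotide reductase and thymidylate synthase. Many of these genes are transcribed through E2F factors, which cyclin E with CDK2 releases from RB proteins. TGF-β is known to hold many epithelial cells in G1.

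The count columns carry library codes (S1 to S4, S15 to S18, S22 to S25) that match no sample label, so each set of columns was placed in its group from the names of the tables that hold it, and every comparison rests on that placement. Libraries held 34698057 to 41575904 counts with acetate, 37202599 to 53936023 with TGF-β1 alone and 38400896 to 53055990 in control. Levels are given as CPM, a gene's counts scaled to a common library total, and 3 counts equal 0.0556 to 0.0865 CPM at these depths. Whether libraries of the same group stem from separate cultures is not stated, so p-values reflect only their spread, which may be technical. Known TGF-β1 targets moved in the TGF-β1 libraries over control, with log2 fold changes of 1.33 for SMAD7 and -5.32 for CDH1 (edgeR adjusted p = 5.6e-15 and 5.4e-17). The epithelial keratin genes KRT8 and KRT18 were abundant in every group, the lowest mean being 1456 CPM (KRT18 with TGF-β1 alone). The other epithelial markers were lower and differed between groups: KRT19 averaged 58.4 CPM with acetate, 7.01 CPM with TGF-β1 alone and 36.6 CPM in control, and EPCAM 5.63, 1.08 and 4.22 CPM in the same groups. The 4 together summed to 4088 to 4806 CPM with acetate, 3469 to 3786 CPM with TGF-β1 alone and 4149.7 to 4367 CPM in control, and their part in the results was not tested. PTPRC, CD3E, PECAM1, VWF and CDH5, which define blood and endothelial cells, are not listed in the tables. The 3 markers of other cell types that are listed (CD68, LUM and DCN) summed to 37.5 to 39.3 CPM in the acetate libraries, 17.4 to 21.6 CPM with TGF-β1 alone and 10.3 to 12.8 CPM in control, and their part was likewise not tested.

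Control library S2 stood apart in these genes before any comparison. All 44 lay below their control mean there, with a median log2 deviation of -0.14, whereas the median over all genes above 1 CPM was -0.0094 in the same library. Control library S1 lay on the other side, with 43 of 44 above the mean (median 0.099). The coefficient of variation within a group had a median of 3.70% in the acetate libraries, 3.495% with TGF-β1 alone and 7.74% in control. The 16 mitotic genes used for comparison also sat low in S2, 13 of them below the control mean with a median deviation of -0.0997. MKI67, CENPE and CENPF instead had their highest control level in S2. The counts of calls over the 44 genes in each comparison with control are therefore given with and without S2. Other values that use control include S2 unless stated.

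Most of the replication genes were higher with TGF-β1 alone than in control. In the TGF-β1 libraries 30 of 44 rose and 11 fell relative to control, with a median log2 fold change of 0.32, at an adjusted p below 0.05 in edgeR's quasi-likelihood test with Benjamini-Hochberg adjustment over all 22051 genes tested. Of all genes, 34.1% rose and 32.8% fell (66.9% called in all) and the median was 0.02. The libraries of both groups did not overlap for 39 of the 44, a share of 88.6%, against 61.2% of all genes. Without S2 the counts were 26 higher and 13 lower, and the median was 0.24. In bulk RNA, more cells in S phase and more RNA per cell cannot be told apart.

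Nearly the whole set was lower with acetate than with TGF-β1 alone. In the acetate libraries 38 of 44 fell relative to TGF-β1 alone and 2 rose (CCNE1 and E2F2), with a median log2 fold change of -0.48. Among all 22336 genes tested 30.4% fell and 33.3% rose (63.7% called), and the median was 0.03. Groups did not overlap for 39 members, against 57.1% of all genes. With library totals in place of trimmed-mean (TMM) scaling, the median over all genes moved to 0.16 and the calls over all genes became 9592 higher and 4699 lower, in place of 7437 and 6792. The members were then 4 higher and 35 lower, with a median of -0.35. The library totals in TGF-β1 over control gave 6078 genes higher and 8676 lower, in place of 7518 and 7224, and 26 members higher and 11 lower (median 0.21, against -0.09 over all genes).

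Set against control, the acetate libraries held 8 members higher and 29 lower, with a median log2 fold change of -0.22. Over all 22742 genes tested 36.1% rose, 34.4% fell and the median was 0.02 (70.6% called). Groups did not overlap for 32 members (72.7%, against 64% of all genes), and without S2 the counts were 7 higher and 32 lower. The 3 comparisons share libraries, so they are not independent of each other and each is given with its own values. Summed over the 44 genes, the level was 2834, 2852, 2978 and 2819 CPM in the acetate libraries, against 4082, 4179.8, 4089.7 and 4306 CPM with TGF-β1 alone and 3434, 2901, 3187 and 3276 CPM in control. The acetate libraries thus lay below all TGF-β1 libraries and, except that control S2 lay between acetate libraries S23 and S24, below control.

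**Figure D1:**
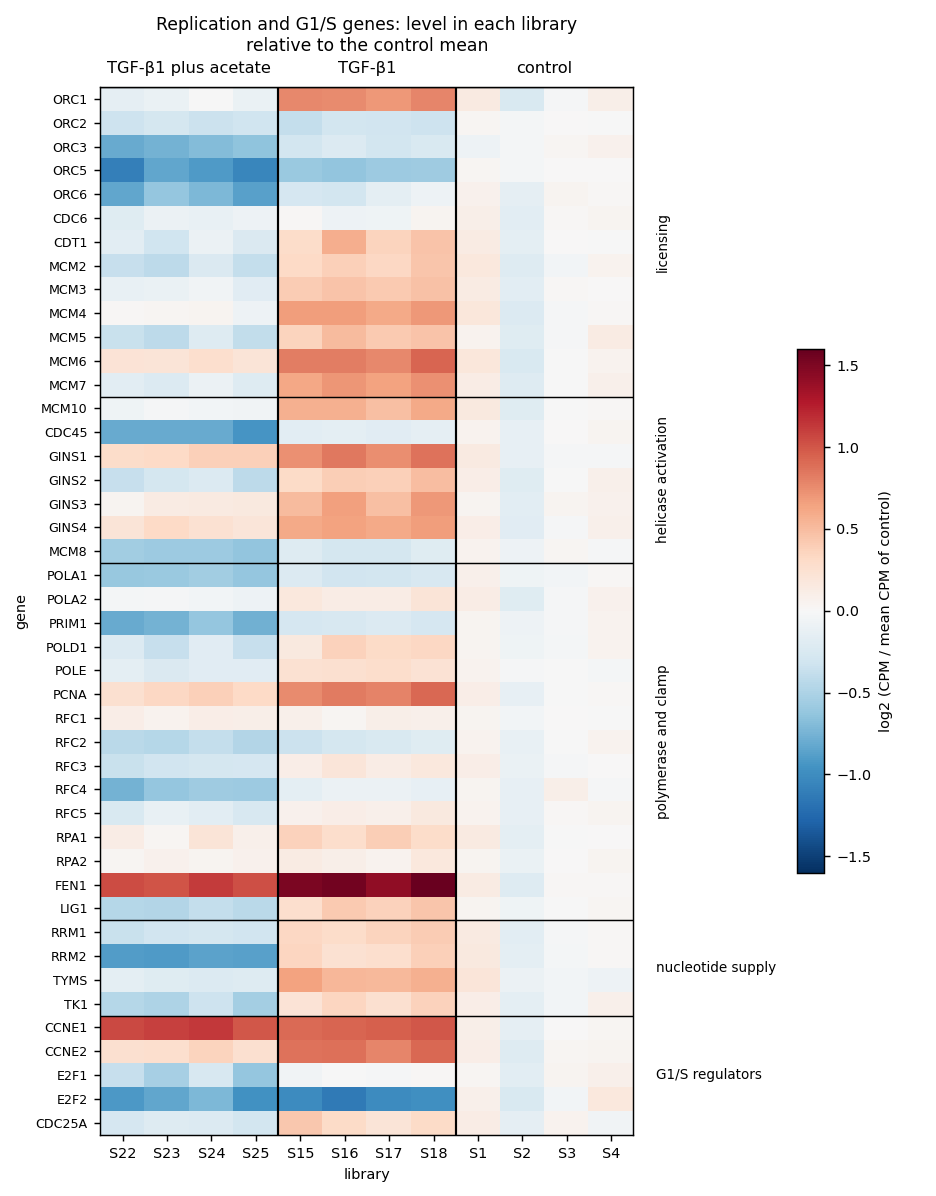
Level of each of the 44 genes in each of the 12 libraries as log2 of its CPM over the control mean; rows are genes in the 5 steps and columns are libraries, acetate on the left, TGF-β1 in the middle and control on the right. Most rows are red with TGF-β1 alone and pale or blue with acetate, FEN1 and CCNE1 stay red in both treated groups, and column S2 is bluish throughout.

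Promoters are shown for members whose changes frame the results: subunits of the ring (MCM6, MCM7), CDC45, the clamp gene PCNA, the reductase gene RRM2, and E2F1 and E2F2 themselves. The sequences are from RefSeq (GRCh38.p14), read 5′ to 3′ on the gene's strand, and end 1 base before the annotated start except for MCM6, which ends 41 bases before it. Capitals mark the 8-letter E2F words TTTCCCGC, TTTCGCGC, TTTGCCGC and TTTGGCGC and the CCAAT box, each on either strand, so that ATTGG is a CCAAT box of the other strand. In MCM6 a pair of E2F words on opposite strands overlap as TTTGGCGCGAAA, at 2 places.
MCM6 promoter, chr2:135876484-135876603, minus strand: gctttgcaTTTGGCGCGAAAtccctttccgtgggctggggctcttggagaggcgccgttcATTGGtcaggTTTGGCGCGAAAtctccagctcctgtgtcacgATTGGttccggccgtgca
MCM7 promoter, chr7:100101398-100101597, minus strand: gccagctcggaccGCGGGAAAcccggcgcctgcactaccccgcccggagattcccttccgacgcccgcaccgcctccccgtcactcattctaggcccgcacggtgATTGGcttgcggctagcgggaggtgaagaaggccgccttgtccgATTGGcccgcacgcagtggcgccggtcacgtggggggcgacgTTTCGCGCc
CDC45 promoter, chr22:19479800-19479919, plus strand: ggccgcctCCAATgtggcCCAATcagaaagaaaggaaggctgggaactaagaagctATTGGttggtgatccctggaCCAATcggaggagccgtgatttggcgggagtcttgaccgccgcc
PCNA promoter, chr20:5126623-5126782, minus strand: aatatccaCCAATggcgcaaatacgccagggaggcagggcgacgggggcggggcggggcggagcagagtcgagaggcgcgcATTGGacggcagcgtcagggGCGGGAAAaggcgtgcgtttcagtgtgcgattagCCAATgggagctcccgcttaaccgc
RRM2 promoter, chr2:10122609-10122738, plus strand: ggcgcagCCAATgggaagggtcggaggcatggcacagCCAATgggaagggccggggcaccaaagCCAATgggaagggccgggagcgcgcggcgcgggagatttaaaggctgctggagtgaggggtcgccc
E2F1 promoter, chr20:33686386-33686505, minus strand: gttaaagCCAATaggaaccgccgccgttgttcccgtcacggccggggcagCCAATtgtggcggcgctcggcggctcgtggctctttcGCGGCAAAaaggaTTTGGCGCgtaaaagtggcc
E2F2 promoter, chr1:23531234-23531293, minus strand: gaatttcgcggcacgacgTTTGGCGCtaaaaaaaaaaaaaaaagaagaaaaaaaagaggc

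A promoter window of 250 bases before to 50 after the start was held for 39 of the 44 genes; MCM4, MCM5, GINS4, RPA2 and CCNE2 had none. At least 1 of the E2F words stood in 21 of the 39 windows (53.8%), against 908 of 27305 windows of all genes (3.33%). A CCAAT box stood in 24 (61.5%, against 35.7% of all windows) and a GC box, GGGCGG on either strand, in 28 (71.8%, against 44.6%). The element TTTGAA, known from promoters of G2 and mitotic genes, stood in 1 member (RRM1; 2.56%, against 15.4%). By step, an E2F word stood in 7 of 11 licensing windows, 4 of 6 for helicase activation, 6 of 14 for polymerases and clamp, 1 of 4 for nucleotide supply and 3 of 4 for the regulators. Such a match of letters is a description and not a measured binding site. Only the listed E2F words were counted, so a window without them may hold other spellings.

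Members with and without an E2F word both fell under acetate in most cases, and no test was made between them. In TGF-β1 over control, the 21 with a word had a median log2 fold change of 0.37 (15 higher, 4 lower) and the 18 without one had 0.20 (10 higher, 7 lower). In acetate over TGF-β1 the medians were -0.45 with a word (19 of 21 lower) and -0.49 without (15 of 18 lower). Of all genes, 34.1% rose and 32.8% fell in TGF-β1 over control, and 30.4% fell in acetate over TGF-β1. The largest rise under TGF-β1 (FEN1) and the largest fall under acetate (RRM2) were both among the members without one. The RefSeq start lay within 100 bases of the deposited gene's 5′ end for 23 of the 39, with a median distance of 59 bases. For the others the window may not be the promoter in use. FEN1 (274 bases) and RRM2 (411 bases) were among these others, so their lack of a word carries this limit. So were MCM7 (543 bases) and CDC45 (461 bases), whose sequences are printed above.

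**Figure D2:**
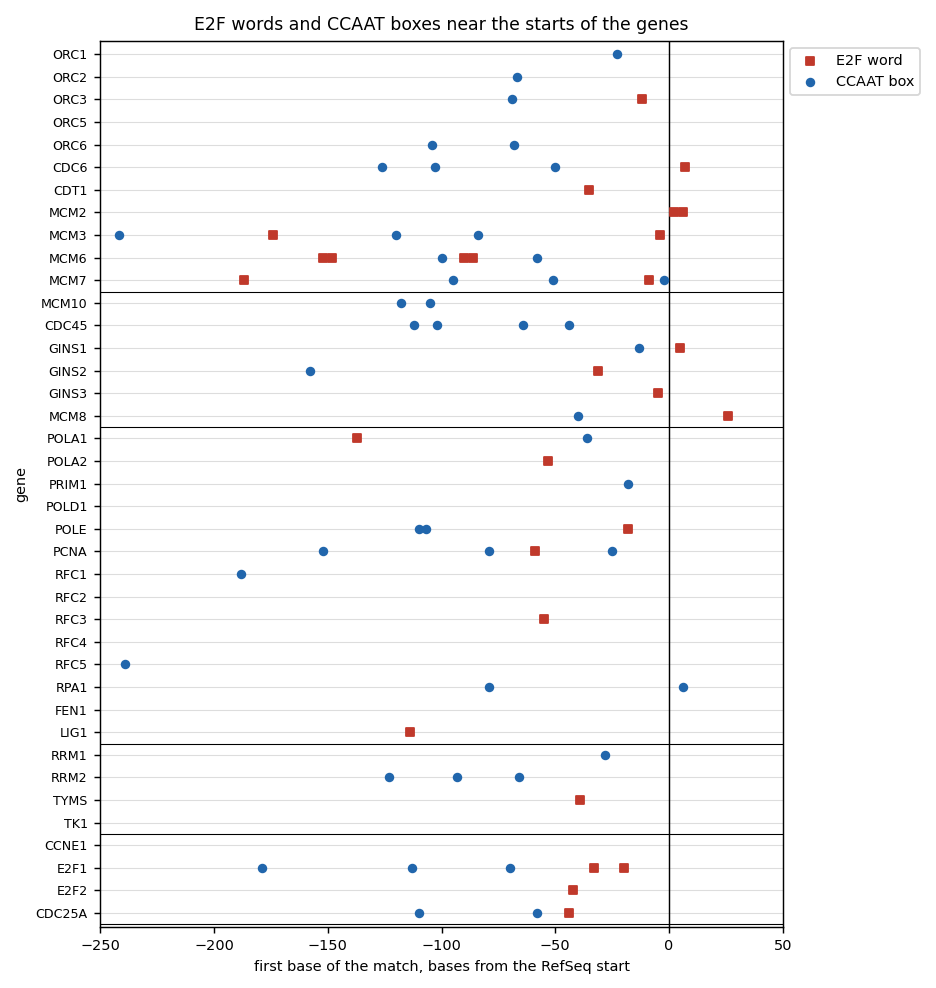
Position of each E2F word (red squares) and CCAAT box (blue circles) in the promoter windows of 39 genes, in bases from the RefSeq start at 0, with genes in rows by step. E2F words lie mostly near the start and CCAAT boxes mostly farther upstream. Rows such as CDC45 and RRM2 hold CCAAT boxes but none of the listed E2F words.

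Licensing genes divided under TGF-β1, with the MCM ring going up and most ORC subunits down, and most of the 13 fell under acetate. In TGF-β1 over control 8 of 13 rose (61.5%, against 34.1% of all genes) and 4 fell (30.8%, against 32.8%). The median log2 fold change was 0.43. Without S2 there were 8 higher and 5 lower, and the median was 0.35. In acetate over TGF-β1 0 rose and 11 fell (84.6%, against 30.4% of all genes), with a median of -0.60. With library totals 1 rose there. MCM2 to MCM7, the 6 subunits of the ring that unwinds DNA, rose in TGF-β1 over control and fell in acetate over TGF-β1 without exception.

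MCM7 (ENSG00000166508.17, chromosome 7, 100092728 to 100101940, minus strand, on hg38) had 214, 207, 225 and 209 CPM in the acetate libraries, against 371, 392.4, 377 and 398 CPM with TGF-β1 alone and 260.1, 208, 239 and 255 CPM in control. All TGF-β1 libraries lay above all others, and control library S2 lay within the range of the acetate libraries. Its log2 fold change was -0.84 ± 0.036 (SE) in acetate over TGF-β1 and 0.68 ± 0.056 in TGF-β1 over control (edgeR adjusted p = 2.4e-11 and 1.3e-08). MCM6 (ENSG00000076003.4, chromosome 2, 135839626 to 135876426, minus strand) had 66.1, 65.9, 68.8 and 65.9 CPM in the acetate libraries, against 101, 101, 97.3 and 109 CPM with TGF-β1 alone and 64.4, 48.0, 56.6 and 59.1 CPM in control. The 3 groups did not overlap, with acetate between TGF-β1 and control. MCM6 gave 0.84 ± 0.066 in TGF-β1 over control, the largest rise among licensing genes, -0.60 ± 0.038 in acetate over TGF-β1, and 0.22 ± 0.062 in acetate over control (edgeR adjusted p = 7.4e-09, 1.9e-09 and 0.00346).

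MCM2 (ENSG00000073111.13, chromosome 3, 127598223 to 127622436, plus strand) had 72.6, 69.9, 79.4 and 71.6 CPM in the acetate libraries, against 117, 122, 117 and 128 CPM with TGF-β1 alone and 105, 81.2, 90.5 and 97.3 CPM in control. MCM3 (ENSG00000112118.17, chromosome 6, 52264009 to 52284881, minus strand) had 104, 105, 109.6 and 99.9 CPM in the acetate libraries, against 151, 156, 152 and 158 CPM with TGF-β1 alone and 125, 101, 115 and 114 CPM in control. MCM4 (ENSG00000104738.16, chromosome 8, 47960185 to 47978160, plus strand) had 209, 212, 212 and 196 CPM in the acetate libraries, against 328, 327, 314 and 335 CPM with TGF-β1 alone and 235, 177, 203 and 210.0 CPM in control. In each of these the TGF-β1 libraries lay above every other library. MCM2 was also lower in acetate than in control without overlap, whereas the acetate and control libraries of MCM3 and MCM4 overlapped. MCM5 (ENSG00000100297.15, chromosome 22, 35400063 to 35425430, plus strand) had 84.2, 80.6, 93.4 and 82.1 CPM in the acetate libraries, against 138, 153, 144 and 148 CPM with TGF-β1 alone and 112, 93.7, 107 and 118 CPM in control, with all 3 groups apart and acetate lowest. Log2 fold changes in acetate over TGF-β1 were -0.71 ± 0.044 for MCM2, -0.55 ± 0.036 for MCM3, -0.64 ± 0.037 for MCM4 and -0.77 ± 0.047 for MCM5, with edgeR adjusted p of at most 2.8e-09. In acetate over control MCM4 did not pass (0.0048 ± 0.058, edgeR adjusted p = 0.947). MCM3 passed there (-0.12 ± 0.050, edgeR adjusted p = 0.0445) but not in 8 of 15 alternatives. An antisense gene, for which no counts were available across the 12 libraries, shares 22.7% of the exon bases of MCM2, and the counting is not stated to have used strand. TPRA1 on the other strand shares 45 exon bases with MCM2. It gave -0.83 in TGF-β1 over control and 0.26 in acetate over TGF-β1, opposite to MCM2.

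ORC subunits went different ways. ORC1, the subunit with the AAA+ ATPase activity of the complex, rose in TGF-β1 over control and fell in acetate over TGF-β1 (log2 fold changes 0.76 ± 0.064 and -0.83 ± 0.044, edgeR adjusted p = 1.9e-08 and 2.1e-10), and in acetate over control gave -0.09 ± 0.064 without passing. ORC5 (ENSG00000164815.10, chromosome 7, 104126341 to 104208047, minus strand), a core subunit, had 27.03, 32.6, 30.9 and 28.1 CPM in the acetate libraries, against 38.2, 37.4, 38.7 and 39.0 CPM with TGF-β1 alone and 59.1, 56.4, 57.8 and 57.9 CPM in control. Its 3 groups did not overlap and stood in descending order from control to TGF-β1 to acetate. The log2 fold changes of ORC5 were -0.59 ± 0.035 in TGF-β1 over control and -0.36 ± 0.054 in acetate over TGF-β1 (edgeR adjusted p = 2.0e-10 and 2.7e-05).

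ORC2, ORC3 and ORC6 also fell in TGF-β1 over control, with log2 fold changes of -0.32, -0.26 and -0.19 (edgeR adjusted p at most 0.00551). ORC6 was the subunit whose TGF-β1 and control libraries overlapped. Under acetate ORC3 and ORC6 fell further (-0.45 and -0.55 relative to TGF-β1), while ORC2 gave 0.02 without passing. ORC4, the remaining core subunit and not a member, had -0.71 in TGF-β1 over control and 0.22 in acetate over TGF-β1 (edgeR adjusted p = 4.9e-11 and 4.5e-04).

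The loaders differed from each other. CDT1 (ENSG00000167513.8, chromosome 16, 88803213 to 88809258, plus strand), which brings the ring to the origin, had 24.2, 21.7, 25.3 and 23.1 CPM in the acetate libraries, against 33.1, 40.5, 34.8 and 37.2 CPM with TGF-β1 alone and 29.8, 24.4, 27.4 and 27.1 CPM in control. Its TGF-β1 libraries lay above all others, and it gave 0.43 ± 0.064 in TGF-β1 over control and -0.61 ± 0.062 in acetate over TGF-β1 (log2, edgeR adjusted p = 1.9e-05 and 3.8e-07). CDC6 (ENSG00000094804.9, chromosome 17, 40287633 to 40304657, plus strand), the ATPase that works with ORC and CDT1, had 77.7, 83.5, 82.1 and 84.3 CPM in the acetate libraries, against 89.7, 84.2, 84.8 and 91.5 CPM with TGF-β1 alone and 94.6, 79.4, 90.1 and 91.3 CPM in control. The 3 groups of CDC6 overlapped. CDC6 passed neither in TGF-β1 over control (-0.02 ± 0.049, edgeR adjusted p = 0.798) nor in acetate over TGF-β1 (-0.09 ± 0.040, edgeR adjusted p = 0.0692). In acetate over control CDC6 was called lower (-0.12 ± 0.048, edgeR adjusted p = 0.0381), which did not pass in 7 of 15 alternatives.

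**Figure D3:**
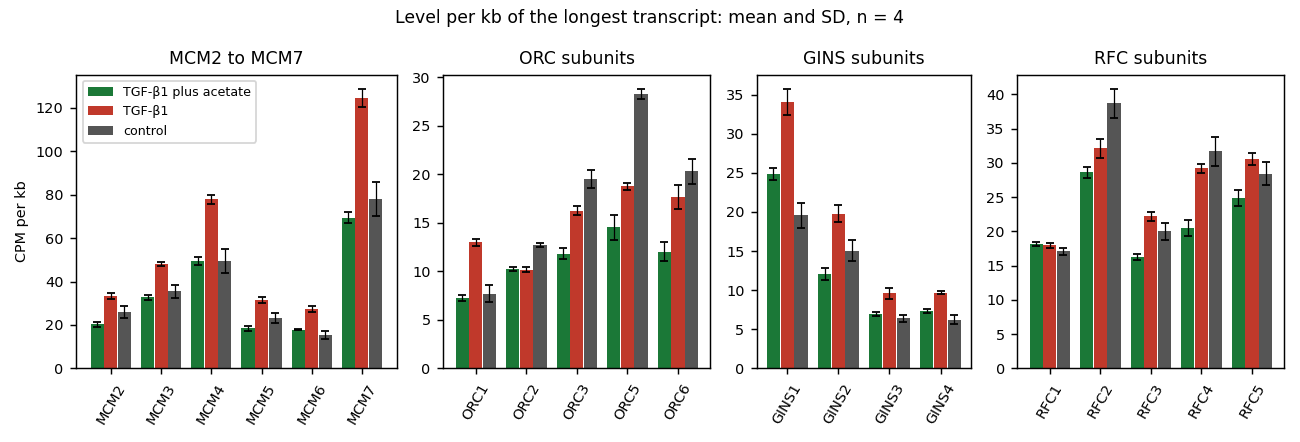
Mean level per kb of the longest transcript (CPM per kb) for the MCM2 to MCM7, ORC, GINS and RFC subunits, with bars for the acetate (green), TGF-β1 (red) and control (grey) groups and error bars of 1 SD over 4 libraries. TGF-β1 bars are the tallest for every MCM and GINS subunit, whereas control bars are the tallest for ORC2, ORC3, ORC5, ORC6, RFC2 and RFC4.

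The ring is built from 1 copy of each subunit, but its transcripts were not at equal levels. Per kb of the longest transcript, MCM7 was the highest of the 6, with 69.3, 125 and 78.0 CPM per kb in the acetate, TGF-β1 and control groups. MCM6 was the lowest of the 6, with 17.8, 27.3 and 15.3 CPM per kb in the same groups. Among all 44 genes PCNA was highest in every group, with 219, 309.7 and 174 CPM per kb, and E2F2 lowest, with 1.81, 1.61 and 3.28 CPM per kb. Length was taken from the annotation and not from the isoforms in use.

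Helicase activation genes rose under TGF-β1 in 5 of 7 cases (71.4%, against 34.1% of all genes) and fell in 2 (28.6%, against 32.8%). The median log2 fold change was 0.56. Under acetate all 7 fell, against 30.4% of all genes, with a median of -0.45. The 4 GINS subunits, which tie CDC45 to the ring, all rose in TGF-β1 over control. GINS1 (ENSG00000101003.9, chromosome 20, 25407727 to 25452628, plus strand) had 78.0, 79.5, 82.6 and 82.7 CPM in the acetate libraries, against 106, 115, 106 and 116 CPM with TGF-β1 alone and 70.6, 57.8, 63.0 and 63.0 CPM in control. The 3 groups did not overlap, with acetate in the middle. GINS1 gave 0.80 ± 0.052 in TGF-β1 over control, -0.45 ± 0.039 in acetate over TGF-β1 and 0.34 ± 0.051 in acetate over control (edgeR adjusted p = 7.1e-10, 7.7e-08 and 6.0e-06).

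GINS2 (ENSG00000131153.8, chromosome 16, 85676198 to 85690073, minus strand) had 31.1, 33.0, 34.6 and 30.1 CPM in the acetate libraries, against 49.6, 52.7, 52.5 and 56.8 CPM with TGF-β1 alone and 43.3, 35.1, 40.1 and 42.5 CPM in control, and acetate was here the lowest group without overlap. GINS2 gave 0.40 ± 0.058 in TGF-β1 over control and -0.71 ± 0.051 in acetate over TGF-β1 (edgeR adjusted p = 1.3e-05 and 7.2e-09). The subunits thus differed in acetate over control, where GINS1 and GINS4 rose (0.34 and 0.24), GINS2 fell (-0.32) and GINS3 did not pass (0.12, edgeR adjusted p = 0.08). Antisense genes share 21.2% of the exon bases of GINS4 and 10.9% of those of GINS3.

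CDC45 (ENSG00000093009.9, chromosome 22, 19479459 to 19520612, plus strand), which completes the active helicase, did not follow GINS. It averaged 18.4 ± 0.845 CPM in the acetate libraries, 29.4 ± 0.304 with TGF-β1 alone and 32.9 ± 1.90 in control (SD, n = 4 each), with no overlap between any of the groups. Its log2 fold changes were -0.16 ± 0.045 in TGF-β1 over control, -0.67 ± 0.047 in acetate over TGF-β1 and -0.84 ± 0.048 in acetate over control (edgeR adjusted p = 0.00548, 5.7e-09 and 8.2e-12). MCM10, a scaffold that helps the helicase start, rose in TGF-β1 over control (0.56) and fell in acetate over TGF-β1 (-0.59), ending at 53.3 ± 0.831 CPM with acetate against 55.0 ± 5.43 CPM in control (SD, n = 4 each).

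MCM8 (ENSG00000125885.13, chromosome 20, 5950652 to 5998977, plus strand), an MCM relative that acts in recombination repair rather than in the MCM2 to MCM7 ring, had 72.8, 71.9, 71.8 and 69.4 CPM in the acetate libraries, against 93.3, 88.4, 88.1 and 93.9 CPM with TGF-β1 alone and 112, 102, 109.8 and 106 CPM in control. The groups did not overlap and descended from control to TGF-β1 to acetate. MCM8 gave -0.23 ± 0.039 in TGF-β1 over control and -0.34 ± 0.036 in acetate over TGF-β1 (edgeR adjusted p = 4.9e-05 and 8.0e-07). Its partner MCM9, not a member, gave -0.33 and -0.70 in the same comparisons.

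**Figure D4:**
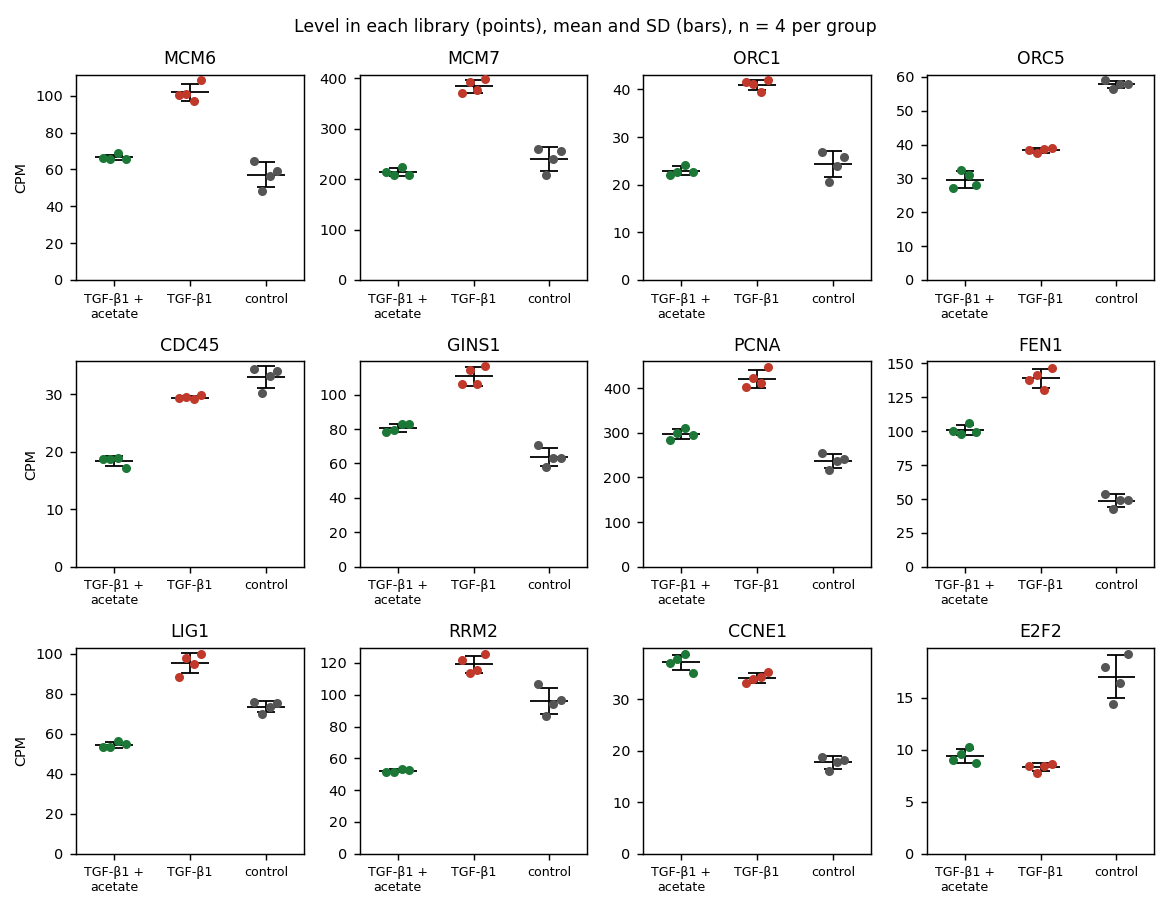
CPM in each library (points) with the mean and SD of 4 libraries (bars) for 12 genes, with acetate at left, TGF-β1 in the middle and control at right of each panel and axes from 0. RRM2, CDC45 and LIG1 are lowest with acetate, FEN1 and CCNE1 are far above control in both treated groups, and ORC5, CDC45 and E2F2 are highest in control.

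Genes of polymerases, clamp and strand maturation rose in 10 of 15 cases and fell in 4 under TGF-β1 (median log2 fold change 0.15), and 13 of 15 fell under acetate with 0 rises (median -0.43). The first count was 6 of 15 without control library S2, without control library S3, or with library totals, since the small rises of POLA2, RFC3, RFC5 and RPA2 no longer passed. The median of 0.15 was 0.069 without S2 and 0.050 with library totals. With library totals in acetate over TGF-β1 the counts were 1 higher and 10 lower. In the reported fit 66.7% of the 15 rose and 26.7% fell under TGF-β1, against 34.1% and 32.8% of all genes. Under acetate 86.7% fell, against 30.4% of all genes. PCNA and FEN1 led the rises under TGF-β1 and LIG1 the falls under acetate.

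PCNA (ENSG00000132646.10, chromosome 20, 5114953 to 5126626, minus strand), the sliding clamp, had 284, 299, 310.0 and 296 CPM in the acetate libraries, against 402, 423, 410.4 and 448 CPM with TGF-β1 alone and 254, 216, 237 and 241 CPM in control. The 3 groups did not overlap, and acetate stood between TGF-β1 and control. PCNA gave 0.83 ± 0.047 in TGF-β1 over control, -0.49 ± 0.038 in acetate over TGF-β1 and 0.33 ± 0.046 in acetate over control (edgeR adjusted p = 1.1e-10, 1.9e-08 and 3.6e-06). FEN1 (ENSG00000168496.3, chromosome 11, 61792637 to 61797244, plus strand), the flap nuclease that trims Okazaki fragments, had 100.4, 98.1, 106 and 99.4 CPM in the acetate libraries, against 138, 142, 130.1 and 146 CPM with TGF-β1 alone and 53.5, 42.4, 49.6 and 49.5 CPM in control. Every treated library lay above every control library. FEN1 gave 1.52 ± 0.058 in TGF-β1 over control, the largest rise of the 44, 1.05 ± 0.056 in acetate over control and -0.45 ± 0.041 in acetate over TGF-β1 (edgeR adjusted p = 5.6e-13, 2.4e-12 and 1.0e-07). FEN1 shares 49 exon bases with FADS2, which held 5.73 times its counts and had log2 fold changes of 0.06 in TGF-β1 over control (edgeR adjusted p = 0.169) and 0.43 in acetate over TGF-β1. It also shares 166 exon bases with TMEM258 on the other strand, which held 0.444 times its counts. TMEM258 gave 0.30 and -0.49 in the same comparisons, the directions of FEN1.

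LIG1 (ENSG00000105486.13, chromosome 19, 48115445 to 48170603, minus strand), the ligase that seals the trimmed fragments, had 53.6, 53.3, 56.3 and 54.7 CPM in the acetate libraries, against 88.4, 98.2, 95.2 and 99.9 CPM with TGF-β1 alone and 75.9, 69.9, 73.4 and 75.3 CPM in control. The groups did not overlap and acetate was lowest. LIG1 gave 0.38 ± 0.042 in TGF-β1 over control and -0.80 ± 0.040 in acetate over TGF-β1 (edgeR adjusted p = 5.6e-07 and 1.3e-10). FEN1 and LIG1, which act one after the other, thus stood on opposite sides of control in the acetate libraries, with LIG1 at -0.43 in acetate over control (edgeR adjusted p = 1.7e-08).

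The polymerases also divided. The catalytic genes of the leading and lagging strand polymerases, POLE and POLD1, rose in TGF-β1 over control (0.26 and 0.30) and fell in acetate over TGF-β1 (-0.43 and -0.56). POLA1 and PRIM1, the catalytic subunits of the polymerase alpha and primase complex that starts each strand, fell in both comparisons: -0.26 and -0.25 in TGF-β1 over control, then -0.32 and -0.47 in acetate over TGF-β1 (edgeR adjusted p at most 3.3e-05). In acetate over control POLA1 gave -0.59 ± 0.038 and PRIM1 -0.74 ± 0.045. PRIM1 shares 33 exon bases with NACA, which held 11.7 times its counts and gave 0.17 in TGF-β1 over control and -0.56 in acetate over TGF-β1.

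RFC1 to RFC5 encode the clamp loader, replication factor C. RFC2 (ENSG00000049541.10, chromosome 7, 74231499 to 74254458, minus strand), a small subunit, had 48.9, 47.7, 50.2 and 47.3 CPM in the acetate libraries, against 51.5, 53.8, 55.3 and 57.2 CPM with TGF-β1 alone and 68.1, 60.6, 65.4 and 68.3 CPM in control. The groups did not overlap and control was highest, with log2 fold changes of -0.26 ± 0.044 in TGF-β1 over control and -0.16 ± 0.039 in acetate over TGF-β1 (edgeR adjusted p = 6.1e-05 and 0.00242); the second did not pass with library totals (adjusted p = 0.557). RFC3, RFC4 and RFC5 fell in acetate over TGF-β1 (-0.44, -0.50 and -0.29). RFC1, the large subunit, passed neither there (0.03) nor in TGF-β1 over control (0.08; edgeR adjusted p = 0.512 and 0.055). Of the single-strand binding genes, RPA1 rose in TGF-β1 over control and fell in acetate over TGF-β1 (0.34 and -0.22), and RPA2 gave 0.12 and -0.05, the second without passing. With library totals the fall of RPA1 did not pass either (-0.09, adjusted p = 0.0838).

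Nucleotide supply had the lowest median of the 5 steps in acetate over TGF-β1. All 4 genes rose in TGF-β1 over control (median log2 fold change 0.34) and all 4 fell in acetate over TGF-β1 (median -0.75) and in acetate over control (median -0.38). Of all genes, 34.1% rose in the first of these comparisons, 30.4% fell in the second and 34.4% fell in the third. RRM2 (ENSG00000171848.13, chromosome 2, 10122328 to 10131419, plus strand), the regulatory subunit of ribonucleotide reductase, had 51.5, 51.2, 53.2 and 52.4 CPM in the acetate libraries, against 122, 114, 116 and 126 CPM with TGF-β1 alone and 107, 86.5, 93.9 and 96.9 CPM in control. Acetate libraries were far below the rest and varied little between themselves. RRM2 gave -1.18 ± 0.039 in acetate over TGF-β1, the largest fall of the 44, -0.88 ± 0.052 in acetate over control and 0.32 ± 0.053 in TGF-β1 over control (edgeR adjusted p = 1.0e-12, 1.1e-11 and 6.1e-05).

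TYMS (ENSG00000176890.15, chromosome 18, 657604 to 673578, plus strand), which makes thymidylate, had 33.2, 32.3, 31.7 and 31.9 CPM in the acetate libraries, against 57.5, 53.6, 53.1 and 54.8 CPM with TGF-β1 alone and 42.2, 34.5, 36.0 and 35.001 CPM in control. The 3 groups did not overlap and acetate was lowest, close below control library S2. TYMS gave 0.57 ± 0.056 in TGF-β1 over control and -0.75 ± 0.040 in acetate over TGF-β1 (edgeR adjusted p = 1.3e-07 and 2.4e-10). It shares 39.1% of its exon bases with ENOSF1 on the other strand, which gave -0.12 and -0.48 in the same comparisons. TYMSOS, also on the other strand, shares 7.41% of them and gave 0.62 and -0.74, the directions of TYMS. RRM1, the catalytic reductase subunit, fell in acetate over TGF-β1 by less than RRM2 (-0.65), and the thymidine salvage kinase gene TK1 gave -0.74 (edgeR adjusted p = 1.9e-10 and 1.7e-09).

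The regulators of entry into S phase went different ways, with 3 of 5 higher and 1 lower in TGF-β1 over control, and 2 higher and 3 lower in acetate over TGF-β1. These shares are 60% and 20%, against 34.1% and 32.8% of all genes, and 40% and 60%, against 33.3% and 30.4%. Without control library S2 the first comparison had 2 lower, and without TGF-β1 library S15, S16 or S17 the second had 0 higher. CCNE1 (ENSG00000105173.13, chromosome 19, 29811898 to 29824308, plus strand), which encodes cyclin E1, had 36.9, 37.7, 38.7 and 35.1 CPM in the acetate libraries, against 33.1, 33.9, 34.2 and 35.3 CPM with TGF-β1 alone and 18.8, 16.04, 17.8 and 18.2 CPM in control. Both treated groups lay above control, and the acetate and TGF-β1 libraries overlapped. CCNE1 gave 0.95 ± 0.050 in TGF-β1 over control and 1.07 ± 0.050 in acetate over control (edgeR adjusted p = 4.1e-11 and 3.1e-13). The small rise in acetate over TGF-β1 (0.13 ± 0.042, edgeR adjusted p = 0.0128) did not pass without TGF-β1 library S15, S16 or S17 (adjusted p = 0.0856, 0.0699 and 0.0631).

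CCNE2 (ENSG00000175305.17, chromosome 8, 94879770 to 94896678, minus strand), which encodes cyclin E2, had 16.97, 17.1, 18.1 and 16.9 CPM in the acetate libraries, against 25.8, 26.2, 24.4 and 26.9 CPM with TGF-β1 alone and 15.3, 12.3, 14.5 and 14.6 CPM in control. The groups did not overlap, and in acetate over TGF-β1 it fell (-0.57 ± 0.049) after a rise in TGF-β1 over control (0.87 ± 0.062; edgeR adjusted p = 5.7e-08 and 2.1e-09). CCNE2 shares 37% of its exon bases with INTS8 on the other strand, which held 4.65 times its counts and gave 0.55 in TGF-β1 over control and -0.15 in acetate over TGF-β1. CDC25A, the phosphatase that activates CDK2, rose in TGF-β1 over control and fell in acetate over TGF-β1 (0.32 and -0.55).

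Of the activating E2F factors, E2F1 and E2F2 are members and E2F3 is not. E2F1 (ENSG00000101412.12, chromosome 20, 33675683 to 33686404, minus strand) had 28.3, 25.1, 30.6 and 23.8 CPM in the acetate libraries, against 34.9, 36.3, 35.8 and 36.9 CPM with TGF-β1 alone and 37.4, 32.4, 37.4 and 38.4 CPM in control. TGF-β1 and control libraries overlapped and the test did not pass (-0.01 ± 0.050, edgeR adjusted p = 0.839). Acetate libraries lay below both, with -0.41 ± 0.065 in acetate over TGF-β1 (edgeR adjusted p = 4.7e-05). E2F2 (ENSG00000007968.6, chromosome 1, 23506430 to 23531220, minus strand) had 8.97, 9.59, 10.3 and 8.72 CPM in the acetate libraries, against 8.46, 7.79, 8.44 and 8.65 CPM with TGF-β1 alone and 17.98, 14.4, 16.5 and 19.2 CPM in control. Control libraries lay far above both treated groups, and E2F2 fell in TGF-β1 over control by the largest amount of the 44 (-1.02 ± 0.080, edgeR adjusted p = 7.9e-09). Its rise in acetate over TGF-β1 (0.18 ± 0.072, edgeR adjusted p = 0.0383) did not pass in 9 of 15 alternatives, among them DESeq2 (adjusted p = 0.0888) and the fits without any single TGF-β1 library or without acetate library S23 or S24 (0.0676 to 0.152). E2F3 averaged 28.1 ± 1.57 CPM in the acetate libraries, 34.9 ± 1.31 with TGF-β1 alone and 32.0 ± 1.92 in control (SD, n = 4 each), and gave 0.13 ± 0.048 in TGF-β1 over control with overlapping libraries (edgeR adjusted p = 0.0256).

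**Figure D5:**
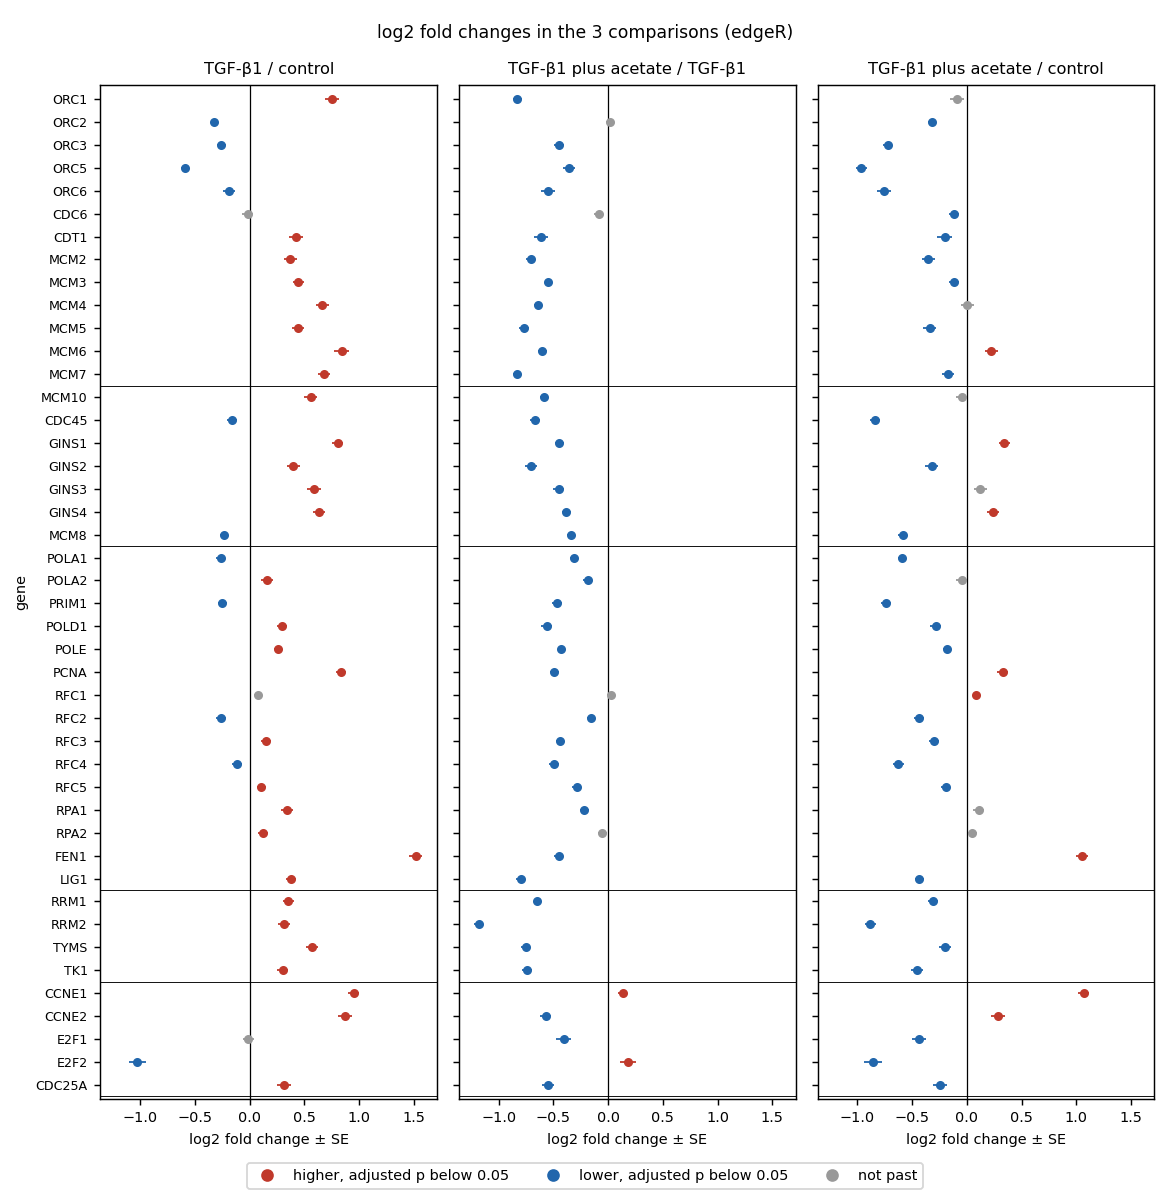
log2 fold change and SE of each gene in TGF-β1 over control, acetate over TGF-β1 and acetate over control (panels from left to right), coloured by the edgeR call at an adjusted p of 0.05. In the middle panel all points but ORC2, RFC1, CCNE1 and E2F2 lie left of 0; in the left panel FEN1 is farthest right and E2F2 farthest left.

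Genes that serve the same steps without being among the 44 were read from lists chosen with earlier results of these data known. Over all genes tested 34.1% rose and 32.8% fell in TGF-β1 over control, and 33.3% rose and 30.4% fell in acetate over TGF-β1. In acetate over control 36.1% rose and 34.4% fell. GMNN, RRM2B, CDK2, E2F3, RB1, MKI67 and, above, SMAD7 are named outside the rule for these lists and were chosen after their values were seen. Of 18 other replisome subunits, 9 rose and 4 fell in TGF-β1 over control (median log2 fold change 0.13), 2 rose and 16 fell in acetate over TGF-β1 (median -0.53), and 1 rose and 15 fell in acetate over control. The fork protection genes TIMELESS and TIPIN gave -0.72 and -0.37 in acetate over TGF-β1, and TOP2A, the topoisomerase that untangles copied DNA, gave -0.63 (edgeR adjusted p = 8.9e-11). Of 10 further genes of licensing control and origin firing, 6 rose and 1 fell in TGF-β1 over control, and 0 rose and 10 fell in acetate over TGF-β1. DBF4, which activates the kinase CDC7, gave -0.70, and the licensing inhibitor geminin (GMNN) gave -0.41 in acetate over TGF-β1. FBXO5 and RECQL4 gave 0.44 and 0.55 in TGF-β1 over control, and TOPBP1 gave -0.57 in acetate over TGF-β1. Of 5 genes of alternative clamp loaders 2 rose and 2 fell in TGF-β1 over control, and 0 rose and 4 fell in acetate over TGF-β1. RAD17 and ATAD5 gave -0.36 and 0.43 in TGF-β1 over control, and CHTF8 and DSCC1 gave -0.52 and -0.62 in acetate over TGF-β1.

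Among 8 genes of chromatin assembly at forks, 4 rose and 2 fell in TGF-β1 over control, and 0 rose and 7 fell in acetate over TGF-β1. The histone chaperone gene ASF1B and UHRF1, which guides maintenance of DNA methylation, rose in TGF-β1 over control (1.00 and 0.89), and UHRF1 and NASP gave -0.79 and -0.48 in acetate over TGF-β1. Of 12 other nucleotide genes 5 rose and 3 fell in TGF-β1 over control (41.7% and 25%), shares near those of all genes, and 2 rose and 9 fell in acetate over TGF-β1 (16.7% and 75%). NT5C gave -0.84 and DUT, which keeps uracil out of DNA, gave 0.62 in TGF-β1 over control. SAMHD1, an enzyme that breaks down deoxynucleotides, averaged 51.3 ± 0.556 CPM in the acetate libraries, 24.5 ± 1.24 with TGF-β1 alone and 28.1 ± 0.822 in control (SD, n = 4 each), a log2 fold change of 1.07 ± 0.042 in acetate over TGF-β1 (edgeR adjusted p = 8.2e-12). The reductase subunit RRM2B, known for its induction by p53, rose as well (0.31), opposite to RRM2.

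Of 15 other genes of E2F, RB proteins and cyclin with CDK2, 7 rose and 3 fell in TGF-β1 over control (46.7% and 20%), in all a share near the 66.9% called over all genes, and 2 rose and 10 fell in acetate over TGF-β1 (13.3% and 66.7%). The repressor E2F7 rose in TGF-β1 over control (0.91), and the repressor E2F8 averaged 3.41 ± 0.378 CPM in the acetate libraries, 9.17 ± 0.200 with TGF-β1 alone and 11.8 ± 1.01 in control (SD, n = 4 each). E2F8 gave -1.41 ± 0.087 in acetate over TGF-β1 (edgeR adjusted p = 1.1e-09), a larger fall than that of any of the 44. CDK2 gave 0.80 and -0.40 in TGF-β1 over control and in acetate over TGF-β1, CCNA2 gave 0.37 and -0.97, and RB1 passed in neither (0.06 and -0.04). CDC25B, a phosphatase of mitotic entry, fell in TGF-β1 over control (-1.32, edgeR adjusted p = 1.7e-14).

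Of 16 mitotic genes 13 rose and 1 fell in TGF-β1 over control (median log2 fold change 0.31, against 0.32 for the 44 replication genes), and 0 rose and 16 fell in acetate over TGF-β1 (median -0.73, against -0.48). In acetate over control 0 rose and 14 fell (median -0.41, against -0.22). Of all genes, 34.1% rose and 32.8% fell in the first comparison, 33.3% and 30.4% in the second and 36.1% and 34.4% in the third. No test compares these genes with the replication genes. KIF20A, a kinesin of the late spindle, gave 1.10 in TGF-β1 over control and -1.17 in acetate over TGF-β1, and CCNB2, which encodes cyclin B2, gave -1.002 in the second (edgeR adjusted p = 1.4e-10, 4.1e-12 and 1.0e-12). The proliferation marker MKI67 was lower with TGF-β1 than in control (-0.19, edgeR adjusted p = 0.0345), but the libraries of both groups overlapped. Its highest control library was S2, at 350 CPM, and S2 was not left out for this value. MKI67 was lower again with acetate (-0.37 relative to TGF-β1).

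Reads shared with neighbouring genes may touch some of these values, which was not tested. By the annotation 18 of the 44 genes share exon bases with another gene and 26 share none. RRM2 and POLA2 share 20.2% and 35.1% of their exon bases with protein-coding genes on the same strand. No counts of those genes were available across the 12 libraries. Among the 26, 15 rose and 8 fell in TGF-β1 over control (median log2 fold change 0.21), 2 rose and 21 fell in acetate over TGF-β1 (median -0.45), and 5 rose and 17 fell in acetate over control (median -0.22). Of all genes, 34.1% rose and 32.8% fell in the first comparison, 33.3% and 30.4% in the second and 36.1% and 34.4% in the third.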

How the data were processed

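RNA was sequenced as paired reads of 75 bases from stranded, ribosomal-depleted total RNA libraries, per the labels' protocols. The submitters' processing notes name bcl2fastq, HISAT2, limma and hg38; no source used here gives the counter, its strand setting or the annotation version. The deposited values are whole-number counts per gene, in 2 tables that share the TGF-β1 columns; each listed gene is above 0.1 CPM in at least 4 libraries. A further 32 value columns matched no library of these groups and were not used. CPM were computed here on TMM-scaled totals of all 12 libraries. Genes were filtered with filterByExpr (minimum count 10, minimum total 15) and tested with edgeR 4.0.16 (quasi-likelihood, R 4.3.3), with p-values adjusted over all genes and a threshold of 0.05. TGF-β1 over control and acetate over TGF-β1 were each fitted within their own table, and acetate over control in a fit of the 12 libraries. An SE is the log2 fold change over the square root of its F. The scripts were tested on simulated data. Alternatives were library totals, RLE and upper-quartile scaling, no filter, DESeq2 1.42.0, limma 3.58.1 (voom), other sets of libraries, and leaving out each library. Per-library values are given for 22 genes: in each step and each of the first 2 comparisons the member past the threshold with the largest rise and the one with the largest fall, and PCNA, MCM2 to MCM7, CDC6, CDT1, RRM2 and E2F1. Context lists are given by counts and the 2 members of smallest p; 1 such gene of the nucleotide list is not reported here. The 44 members and all gene lists were chosen with earlier results of these data known. Counts carry counting error beside the spread between libraries; 3 counts were taken as the floor. Promoter sequences are from RefSeq (GRCh38.p14), and gene positions are as deposited.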

Additional observations from a re-analysis of the deposited data

Results flagged for a closer look

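Among 132 groups of 4 libraries (44 genes in 3 groups), 4 held a library farther from the rest than Dixon's 95% critical value allows, or 3.03%; chance flags about 1 group in 20. MCM6 had 68.8 CPM in acetate library S24, above the other acetate libraries at 65.9 to 66.1 CPM. CCNE2 had 18.1 CPM in the same library, against 16.9 to 17.1 CPM in the others. In S24, 41 of the 44 genes lay above the acetate mean. Their median log2 deviation was 0.043, against 0.021 over all genes above 1 CPM. CDC45 had 17.1 CPM in acetate library S25, below the others at 18.7 to 18.9 CPM. GINS3 had 18.1 CPM in control library S2, below the others at 21.1 to 21.5 CPM, and S2 is the library in which all 44 genes lay below the control mean.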

How the results depend on the processing

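Over 15 alternatives for each comparison, 1867 of 1980 log2 fold changes of the members kept their direction and side of the threshold. No gene that passed in the reported fit changed sign. Members past the threshold in every alternative numbered 26 higher and 10 lower in TGF-β1 over control, 0 higher and 35 lower in acetate over TGF-β1, and 7 higher and 26 lower in acetate over control. The count of members higher in acetate over TGF-β1 (2) was 4 with library totals, 1 with RLE scaling, 1 with DESeq2, 1 in the fit of all 12 libraries, and 0 to 2 when single libraries were left out; the cause was not tested.

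The sign changes were all in genes that did not pass in the reported fit; ranges below are over fits that leave out 1 library each, in log2 units. In TGF-β1 over control, RFC1 gave -0.0256 with library totals, CDC6 ranged from -0.0976 to 0.00578 and E2F1 from -0.0961 to 0.00418. In acetate over TGF-β1, ORC2 gave -0.0016 with RLE scaling and -0.00153 with DESeq2 and ranged from -0.0251 to 0.0236, and RFC1 ranged from -0.00945 to 0.0359. Library totals there gave 0.0451 for CDC6 and 0.0783 for RPA2. In acetate over control, MCM4 gave -0.0174 with RLE scaling, -0.0174 with DESeq2 and -0.0156 with the 8 libraries of both groups only, and ranged from -0.0866 to 0.0710. MCM10 gave 0.00152 with upper-quartile scaling and ranged from -0.131 to 0.00943. POLA2 gave 0.000483 with library totals and 0.00559 with upper-quartile scaling, and RPA2 ranged from -0.00862 to 0.0659.

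No paired analysis was possible because the count columns carry no replicate numbers. Depth was not the limit for these genes, whose levels lay far above the floor of 3 counts. The spread between libraries was larger in control than in the other groups.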

Other observations

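The order of the 3 group means was described for each gene. TGF-β1 highest, control next and acetate lowest was the order of 19 of the 44 genes (43.2%, against 13.4% of all genes), and control highest, TGF-β1 next and acetate lowest that of 11 (25%, against 19.4%). Another 10 genes had TGF-β1 highest, acetate next and control lowest (22.7%, against 15.9%). Among these 10, MCM4 averaged 207.1 CPM with acetate and 206.4 CPM in control, with S2 included. Only RFC1 and CCNE1 had acetate highest, followed by TGF-β1 and control (4.55%, against 22.2%), and ORC2 and E2F2 had control highest and TGF-β1 lowest (4.55%, against 15.6%). Neighbouring means in these orders need not differ beyond their spread, and no test was made of the orders.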
